A study of Mus musculus with 4 samples.

Results

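The genes of the complement and coagulation cascades were followed in the livers of obese mice given galanin-like peptide (GALP), a neuropeptide of the hypothalamus that reduces food intake and body weight. The set held 37 genes, 18 of complement and 19 of coagulation, and its members were found by gene name among the probes of the arrays. Of these genes, 36 were on the array by that name and 35 had a probe without an outlier mark on all 4 arrays, among 26518 gene names with such a probe. The gene absent by name was C1s. The gene without a complete probe was F2 (prothrombin). The remaining 35 genes, 17 of complement and 18 of coagulation, were marked by the image software as well above background in all 8 colour channels. The dimmest of them, Cfd, still had spot signals of only 1.5 to 2.8 times the local background.

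Liver RNA came from male C57BL/6 mice, bought at 8 weeks of age, made obese with 14 weeks of a high-fat diet (diet-induced obesity, DIO) and weighing at least 40 g. For 11 days the mice received 2 µL of saline, or 1 nmol of porcine GALP(1–60) in saline with 5% α-cyclodextrin, into the nose, and the diet went on in both groups. The GALP-treated mice were split by weight loss into a pool of 4 that lost more (the greater-loss pool) and a pool of 4 that lost less (the lesser-loss pool). Each was compared with RNA pooled from 8 saline-treated mice on 2 dual-colour Agilent arrays, the dyes Cy3 and Cy5 being swapped on the second. The vehicle of the GALP group held α-cyclodextrin, which the labels do not give for the control group, so the peptide and the vehicle cannot be told apart. Values are log2 ratios of GALP over control, averaged over the 2 arrays of a pool. Where both arrays of a pool are given, that with GALP in Cy5 comes first, and the SD is that of the 2 pools (n = 2). The SD leaves out the difference between the 2 arrays of a pool, so a small SD can stand beside a large dye difference. The control was 1 pool, and its own spread enters no SD, no interval and no test.

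Complement and coagulation are cascades of plasma proteases that activate one another in turn, and hepatocytes make most of their proteins. Complement marks microbes and damaged cells. It is started by the classical, lectin or alternative pathway, all of which form enzymes that cleave C3, and it ends in a pore built from the terminal components. Coagulation is started by tissue factor with factor VII or by the contact system, and it ends with thrombin turning fibrinogen into fibrin. Factor D, encoded by Cfd and also called adipsin, differs from the others in that adipocytes are its best known source.

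The probes of 4 complement genes that carry the values below are shown by the first 30 of their 60 bases, as the scanner files give them, with the probe position on mm9 (NCBI37). In the deposited ratios Cfd had the lowest mean of all members, C2 and C3 the highest, and C6 the greatest difference between the pools.
Cfd, chr10:79355302-79355361, plus strand: aacatcacaaatggtaacatgacatcctga
C2, chr17:34999575-34999634, minus strand: tctctagtgtggatgacccgtgctcctttt
C3, chr17:57343416-57343475, minus strand: attcacagaatctatggtggtttatggttg
C6, chr15:4748363-4748422, plus strand: ttgctggaccatcaaggtatacatgcaagg

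The methods use an image-software p-value under 0.01 and limits of 1.5-fold and 0.75-fold of control, and do not say on how many arrays the p-value has to pass. Read as a p-value under 0.01 and the same direction on all 4 arrays with both pools past the fold limit, which is the rule used below, they called no member higher or lower. Over all 41037 probes this rule called 0.0585% higher and 0.132% lower. With the p-value asked on at least 1 array of each pool, Cfd was called lower, as were 0.405% of all probes, and no other member was called. With limma on the 2 pool ratios, 0 members passed an adjusted p of 0.05 (0.0% of all probes did), and 11 of 35 had an unadjusted p under 0.05, against 20.2% of the 10650 genes with signal in all channels. On simulated data limma over all probes recovered none of the known changes at this threshold, so its count of 0 members does not bear on whether they changed. The smallest adjusted p of a member was 0.374, for C2 and Cfd alike. In 28 of the 35 members the mean log2 ratio lay within 0.2 of 0, against 78.4% of the genes with signal. Only Cfd went beyond 0.5 in size, as 2.82% of those genes did. The median size of the mean was 0.10 over the members and 0.093 over the genes with signal.

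**Figure D1:**
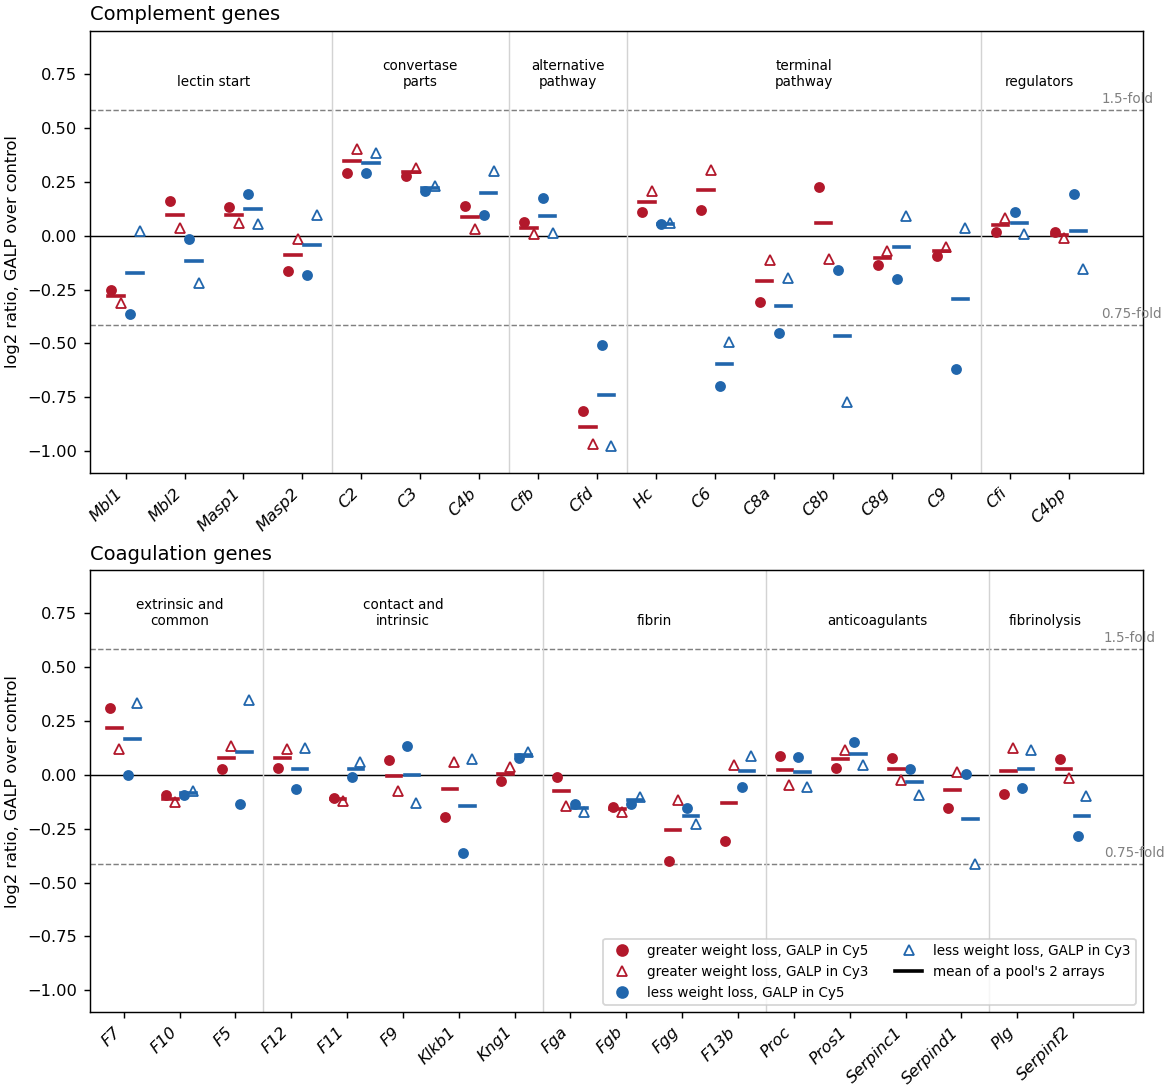
Log2 ratio of GALP over control on each array for the 17 complement genes (top) and 18 coagulation genes (bottom), ordered by role. Circles are arrays with GALP in Cy5, triangles arrays with GALP in Cy3, bars the mean of a pool, and dashed lines the 1.5-fold and 0.75-fold limits of the methods; all 4 values of Cfd lie under the lower limit, C2 and C3 lie above 0 on every array, and C6 lies on opposite sides of 0 in the pools.

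The medians of both cascades lay near 0. The median log2 ratio of the complement genes was 0.051 in the greater-loss pool and -0.042 in the lesser-loss pool. That of the coagulation genes was 0.00096 and 0.0068. By these pool ratios the complement median was the higher by 0.051 in the greater-loss pool and the lower by 0.049 in the lesser-loss pool. On single arrays it was the higher on every array, by 0.085 and 0.010 in the greater-loss pool and 0.043 and 0.027 in the other. The order in the lesser-loss pool thus depended on whether the arrays were averaged per gene before the median was taken. The median over the genes with signal was -0.0096 in the greater-loss pool and -0.015 in the lesser-loss pool.

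The complement genes were spread more widely around 0 than the coagulation genes, a difference that was not tested. The median size of the mean ratio was 0.14 for complement and 0.084 for coagulation, and the 2 pools of a gene lay a median of 0.10 apart in complement and 0.055 in coagulation. Over the genes with signal these medians were 0.093 and 0.097, so the pool gap of complement was near that of all genes. Complement also held the dimmest members. The lowest spot signal over local background was 1.5 for Cfd and 2.3 for C8b, and in coagulation 5.7, for F5. The largest size in coagulation was 0.22, that of Fgg. The 95% interval of limma lay between a halving and a doubling for all 18 coagulation genes and for 14 of 17 complement genes, Cfd, C6 and C8b being those that reached beyond. The software gave a p-value under 0.01 to 6 of the 140 single-array ratios of the members, 3 of Cfd and 1 each of C6, C8b and C9. The smallest of these 6 ratios was 0.62 in size, and the largest of the other 134 was 0.51.

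Of the 17 complement genes, 7 lay above 0 on all 4 arrays and 2 lay below. In coagulation these counts were 2 and 4 of 18. Among the genes with signal, 13.1% lay above 0 on all 4 arrays and 14.8% below. The 7 complement genes were Masp1, C2, C3, C4b, Cfb, Hc and Cfi, and all of them but C2 and C3 had a mean below 0.2. With another background correction and dye normalization (normexp with loess) only 3 of the complement genes lay above 0 on every array.

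The initiators of the lectin pathway had small ratios. Mbl1 and Mbl2 encode the mannose-binding lectins, which recognise sugars on microbes, and Masp1 and Masp2 the proteases bound to them. The log2 ratio of Mbl1 was -0.25 and -0.31 in the greater-loss pool and -0.36 and 0.022 in the lesser-loss pool. It was below 0 on 3 of 4 arrays, with a mean of -0.23 ± 0.077. The ratio of Mbl2 was 0.16 and 0.035 in the greater-loss pool, and -0.015 and -0.22 in the other pool. Both arrays of one pool were above 0 and both of the other below. Masp1 was above 0 on all 4 arrays with a mean of 0.11 ± 0.02, and Masp2 had a mean of -0.066 ± 0.033. This was not so for the other Masp1 probes. In 2 of them, well above background in all channels, the means were -0.0038 and -0.14, and the mean over the probes with signal was -0.012. The last one, for another transcript, had a mean of 0.82 but was not well above background in any channel. C1s, the protease of the classical pathway, was absent by that name. The mouse gene C1s1, which RefSeq lists with C1s as a synonym, had pool ratios of -0.035 and 0.11.

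C2 and C3 had the highest ratios of the set. C2 is the protease of the classical and lectin C3 convertase, and C3 is the component on which all pathways converge. The log2 ratio of C2 was 0.29 and 0.40 in the greater-loss pool and 0.29 and 0.39 in the lesser-loss pool. All 4 values lay between 0.29 and 0.40, and the pools differed by 0.0097. The mean was 0.34 ± 0.0068, with a 95% interval of 0.29 to 0.40 and a limma adjusted p of 0.374. A second C2 probe, in the same transcript, gave a mean of 0.31. The ratio of C3 was 0.28 and 0.32 in the greater-loss pool and 0.21 and 0.23 in the lesser-loss pool. Every array was above 0 for this probe, with a mean of 0.26 ± 0.054 and an interval of 0.059 to 0.46. A second C3 probe that lies nearer the 5′ end of the transcript gave -0.22 and 0.36 in the greater-loss pool and -0.40 and 0.41 in the other, so its sign followed the dye. C4b, the other part of the convertase, had a mean of 0.14 ± 0.081 and was above 0 on all arrays. Its sequence is close to that of C4a, and the probe may not tell them apart.

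C2, Cfb and C4b lie together in the class III region of the major histocompatibility complex on chromosome 17, with 5.7 kb between the probes of Cfb and C2. All 3 were above 0 on all arrays. Cfb (factor B, the C2 homologue of the alternative pathway) had a mean of 0.066 ± 0.04, which became -0.088 with normexp and loess. Over the whole set, 7 pairs of members had probes within 200 kb of each other and 6 of these pairs had means of the same sign. The pairs are not independent, since Cfb and Fga each recur among them, and the share over all neighbouring genes was not counted. F7 and F10 on chromosome 8 were the pair with opposite signs.

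In the deposited ratios Cfd had the largest difference of all members. Factor D is the protease that cleaves factor B and so completes the alternative pathway convertase. Its log2 ratio was -0.81 and -0.97 in the greater-loss pool and -0.51 and -0.97 in the lesser-loss pool, below 0 on every array. The fold was 0.540 in the first pool and 0.599 in the second, under the 0.75-fold limit in both. The software p-value was under 0.01 on 3 arrays, and it was 0.0233 on the array of the lesser-loss pool with GALP in Cy5, so the gene was not called where all 4 arrays had to pass. The mean was -0.81 ± 0.11, a fold of 0.569 with a 95% interval of 0.435 to 0.743, and the limma adjusted p was 0.374. Of the 10650 genes with signal, 63 had a lower mean.

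The Cfd value was smaller in size with normexp and loess, which change the background correction and the dye normalization together. Cfd was the dimmest member, with spot signals of 1.5 to 2.8 times the local background, whereas those of C2 were 28.2 to 97.4 times and those of C3 243 to 1058 times. The processed signal of the Cfd probe was 124 to 195 in the GALP channels and 242 to 276 in the control channels. These channels are repeat measurements of the same pools. With this processing, which also adds an offset of 50 to each signal, the ratios were -0.22 and -0.29 in the greater-loss pool and -0.19 and -0.17 in the other. All 4 stayed below 0, and the mean was -0.22. Cfd was then no longer the member with the lowest mean or the one largest in size. For C2 and C3 the same processing gave 0.34 and 0.28. For C8a, Fgg, Fga and Serpind1 it gave -0.24, -0.26, -0.29 and -0.30. Of the 35 members, 30 moved by less than 0.1. The others besides Cfd were C9, which moved by 0.14, and the bright members Fga, Serpind1 and Cfb, which moved by -0.17, -0.16 and -0.15.

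**Figure D2:**
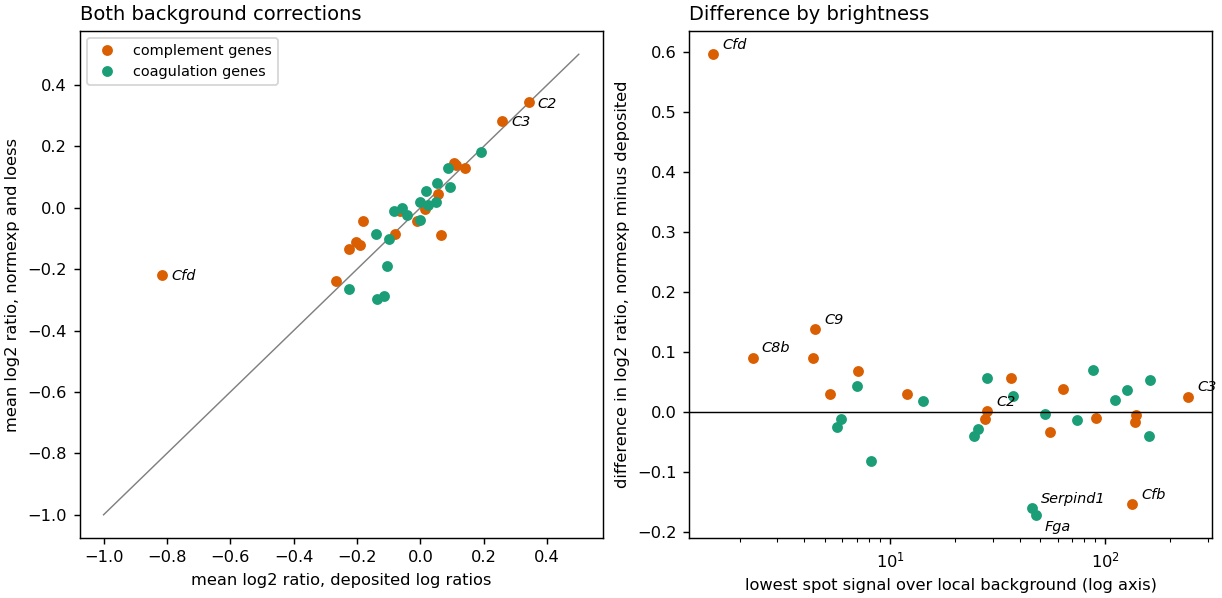
Left, mean log2 ratio of each member from the deposited log ratios (x) and after normexp with loess (y), with the line of equality. Right, the difference between both values against the lowest ratio of spot signal to local background over the 8 channels (log axis); Cfd is the dimmest member and moves from -0.81 to -0.22, C2 and C3 stay near the line, and Fga, Serpind1 and Cfb, which are bright, move by -0.17 to -0.15.

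Markers of adipocytes, the cells best known to make factor D, are given beside this value. Of 9 markers, Retn and Lep were not well above background in any channel, Plin1 was so in 1 of 8 channels, and none of the 9 was called. Of the 7 with signal in some channel, 5 had a mean above 0 and 2 below, and their ratios in the greater-loss pool ran from -0.67 to 0.76. The pool ratios were 0.38 and -0.26 for Adipoq, 0.41 and 0.28 for Fabp4, 0.74 and 0.76 for Cidec and -0.67 and 0.24 for Cidea. Plin1 was at 0.76 and -0.26 and Lipe, above background in 2 channels, at 0.066 and 0.39. Car3 was at -0.40 and -0.19, while a second Car3 probe, for another transcript and well above background in all channels, was at 0.90 and 0.54. The summed processed signal of the 9 markers was 46968 to 64886 in the GALP channels and 48345 to 67678 in the control channels, so these ranges overlapped. Fabp4, Cidec and Car3 are expressed in liver too, and the part of adipocytes in the Cfd value was not tested. Fewer cells of a type and less RNA per cell cannot be told apart in RNA of whole liver. The 7 hepatocyte markers measured were well above background in all channels, with pool ratios between -0.56 and 0.29.

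By the distance of the 4 array ratios, the probes most like Cfd among 14444 with signal in all channels were those of Olfr125, Lgr5 and Ppp1r3g and 2 probes of a transcript named only by its Ensembl identifier. Their distances were 0.18 to 0.30 on the log2 scale. One of the 2 unnamed probes was called lower by the rule of the methods.

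The terminal components had ratios of both signs. Hc (C5) is the component whose cleavage starts the pore, and C6, C8 and C9 are added to it in turn. Hc had a mean of 0.11 ± 0.072 and was above 0 on all arrays. The ratio of C6 was 0.12 and 0.31 in the greater-loss pool and -0.70 and -0.49 in the lesser-loss pool. The 2 pools lay on opposite sides of 0 on every array, as 6.06% of the genes with signal did. The pools were 0.81 apart, the widest gap of any member, whereas the 2 arrays of a pool were 0.19 and 0.20 apart. The mean of C6, -0.19 ± 0.57, therefore describes neither pool, and the interval was -2.26 to 1.88. One pool per weight-loss group allows no test of this difference.

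C8 is built from 3 chains, encoded by C8a, C8b and C8g. C8a was below 0 on all 4 arrays, with -0.31 and -0.11 in the greater-loss pool, and -0.45 and -0.20 in the other pool, and its mean was -0.27 ± 0.081. C8b was at 0.23 and -0.11 in the greater-loss pool and -0.16 and -0.77 in the lesser-loss pool. Its 2 arrays of a pool differed by 0.34 and 0.61, and it was the second dimmest member. C8g had a mean of -0.079 ± 0.036. C9, which forms the wall of the pore, was at -0.094 and -0.05 in the greater-loss pool, and -0.62 and 0.036 in the other pool. One array lay far below the other 3, and the mean was -0.18 ± 0.15. Of the 6 terminal components, C6, C8a, C8b and C9 lay between -0.60 and -0.29 in the lesser-loss pool and between -0.21 and 0.21 in the other. In the greater-loss and lesser-loss pools C8g was at -0.10 and -0.054 and Hc at 0.16 and 0.057. The 2 regulators were near 0. Cfi, the protease that inactivates C3b and C4b, had a mean of 0.056 ± 0.0065, and C4bp, its cofactor, one of 0.013 ± 0.012. C4bp was above 0 on both arrays with GALP in Cy5 and below on both with GALP in Cy3.

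**Figure D3:**
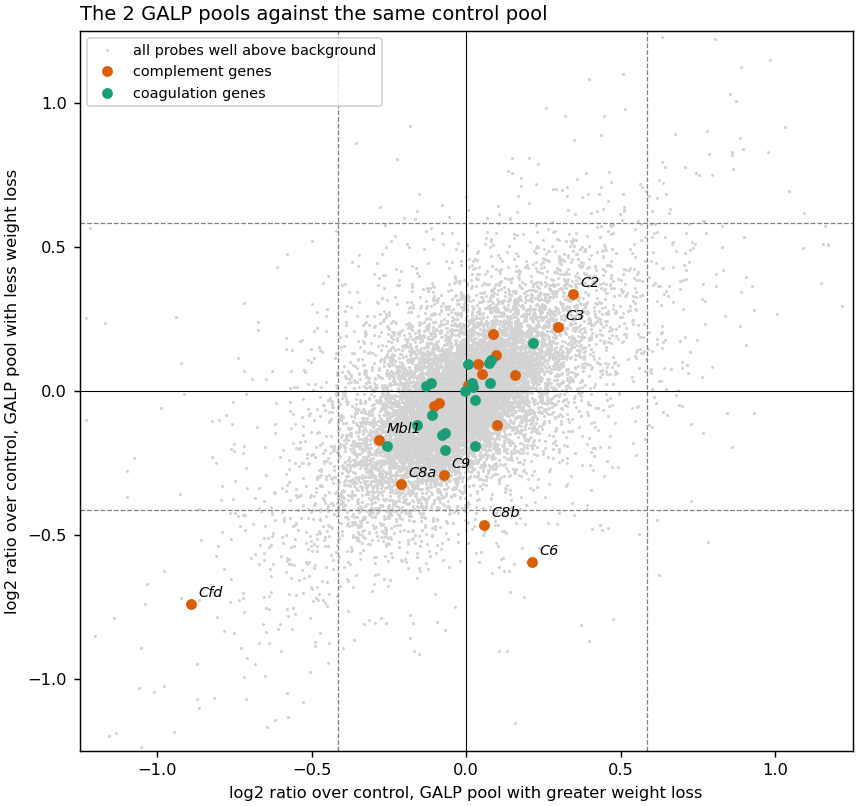
Log2 ratio over control in the greater-loss (x) and lesser-loss (y) GALP pools, with complement genes in orange, coagulation genes in green and all 14444 probes well above background in grey. Dashed lines mark the 1.5-fold and 0.75-fold limits; Cfd is the only member under the lower limit in both pools, C6 and C8b are under it only in the lesser-loss pool, and the coagulation genes lie near the origin.

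In coagulation, the fibrinogen genes shared a direction. Fga, Fgb and Fgg encode the 3 chains of fibrinogen, the precursor of the fibrin clot, and lie side by side on chromosome 3, with 16.8 and 10.6 kb between their probes. The ratio of Fgg was -0.40 and -0.11 in the greater-loss pool and -0.15 and -0.23 in the lesser-loss pool, that of Fgb -0.15 and -0.17 in the greater-loss pool, and -0.13 and -0.10 in the other pool. Fga was at -0.01 and -0.14 in the greater-loss pool, and -0.13 and -0.17 in the other pool. All 12 values were below 0, and none went beyond -0.40. The means were -0.11 ± 0.053 for Fga, -0.14 ± 0.029 for Fgb and -0.22 ± 0.046 for Fgg, with 95% intervals of -0.31 to 0.083, -0.26 to -0.021 and -0.40 to -0.05. Limma adjusted p-values were 0.544, 0.415 and 0.407. With normexp and loess the means were -0.29, -0.084 and -0.26, with 1 value of Fgb above 0 (0.052) and the lowest value, one of Fga, at -0.46. F13b, the carrier subunit of the factor that crosslinks fibrin, had a mean of -0.057 ± 0.10. It was below 0 on both arrays with GALP in Cy5 and above on both with GALP in Cy3.

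The stretch of 250 bases before the RefSeq start of each fibrinogen gene (GRCm38.p6) is shown because these neighbours share a direction. Each is written in the direction of its gene. Capitals mark matches on either strand to CTGGGAA, known from interleukin-6 response elements of acute-phase genes, and to TTNNGNAA, a loose form of the C/EBP motif. Matches to both did not overlap.
Fga, chr3:83025903-83026152, plus strand: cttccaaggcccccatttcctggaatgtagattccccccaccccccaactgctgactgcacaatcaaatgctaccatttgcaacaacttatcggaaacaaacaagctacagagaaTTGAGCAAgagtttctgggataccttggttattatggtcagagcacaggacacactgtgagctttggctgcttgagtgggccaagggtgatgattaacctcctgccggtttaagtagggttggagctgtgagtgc
Fgb, chr3:83049864-83050113, minus strand: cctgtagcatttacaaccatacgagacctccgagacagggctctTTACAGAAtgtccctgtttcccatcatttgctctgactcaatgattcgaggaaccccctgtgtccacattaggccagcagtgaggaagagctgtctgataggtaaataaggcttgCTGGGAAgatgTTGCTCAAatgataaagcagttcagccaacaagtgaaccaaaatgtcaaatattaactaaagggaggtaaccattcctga
Fgg, chr3:83007474-83007723, plus strand: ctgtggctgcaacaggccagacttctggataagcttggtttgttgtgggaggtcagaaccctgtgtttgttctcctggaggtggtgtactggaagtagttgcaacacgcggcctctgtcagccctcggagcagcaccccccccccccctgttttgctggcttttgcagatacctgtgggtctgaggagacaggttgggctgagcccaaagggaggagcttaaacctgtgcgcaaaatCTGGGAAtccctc

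CTGGGAA was present before Fgb and Fgg and TTNNGNAA before Fga and Fgb. Of the 28 members with such a stretch in the RefSeq table, 4 held CTGGGAA (Masp2, F9, Fgb and Fgg) and 13 held TTNNGNAA. Over all 32851 stretches of this length the shares were 9.1% and 36.8%. A match is a string of letters and not a measured binding site.

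The other clotting factors lay close to 0. F7, the partner of tissue factor, had the highest mean in coagulation, 0.19 ± 0.034, and was above 0 on all arrays, with 0.31 and 0.12 in the greater-loss pool, and 0.00069 and 0.34 in the other pool. Its neighbour F10, the protease that forms thrombin, was at -0.10 and -0.13 in the greater-loss pool, and -0.094 and -0.074 in the other pool. All values of F10 were below 0, with a mean of -0.10 ± 0.019. F5, the cofactor of factor X, had a mean of 0.094 ± 0.018. F2 was measured without an outlier mark on 3 arrays, at 0.15 and 0.017 in the greater-loss pool and -0.15 on 1 array of the other.

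The 5 contact and intrinsic factors had means within 0.11 of 0. F12 starts the contact pathway, Klkb1 encodes prekallikrein and Kng1 the kininogen from which bradykinin is cut. Their means were 0.053 ± 0.035, -0.11 ± 0.056 and 0.049 ± 0.062. F11 and F9, the next proteases in line, had means of -0.043 ± 0.10 and -0.0011 ± 0.0026. F9 was at 0.069 and -0.075 in the greater-loss pool and 0.13 and -0.13 in the lesser-loss pool, so its sign followed the dye. The ratios of Klkb1 were -0.19 and 0.06 in the greater-loss pool and -0.36 and 0.072 in the lesser-loss pool. Both arrays with GALP in Cy5 were below 0 and both with GALP in Cy3 above, so the spread of this gene followed the dye. Kng1 is close in sequence to Kng2, which had pool ratios of -0.052 and -0.15.

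Among the inhibitors of clotting, Pros1 (protein S, the cofactor of protein C) was above 0 on all arrays with a mean of 0.087 ± 0.017, and a second probe gave 0.14. Proc (protein C) had a mean of 0.017 ± 0.006, Serpinc1 (antithrombin) one of -0.0021 ± 0.043 and Serpind1 (heparin cofactor II) one of -0.14 ± 0.10. Proc and Serpinc1 were above 0 on both arrays with GALP in Cy5 and below on both with GALP in Cy3. For Serpind1, 1 array of the lesser-loss pool was at -0.41 and the other 3 lay between -0.15 and 0.013. Its mean was -0.30 with normexp and loess. In fibrinolysis, the means were 0.023 ± 0.0075 for Plg (plasminogen) and -0.082 ± 0.16 for Serpinf2 (the inhibitor of plasmin). Plg was below 0 on both arrays with GALP in Cy5 and above on both with GALP in Cy3.

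Several members had more than 1 probe. In 8 of them a further probe was well above background in all channels, 10 probes in all. These differed from the brightest probe by a median of 0.045 and by at most 0.25 in the mean log2 ratio, and none was called. The 2 arrays of a pool differed by a median of 0.14 over the members and by 0.19 over the genes with signal.

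Other genes of both cascades were taken from a list of 65, of which 62 had a probe and 53 were above background in at least 1 channel. None was called, and 27 had a mean above 0 and 26 below. The 3 chains of C1q, the recognition protein of the classical pathway that macrophages make, were above 0 on all arrays, with pool ratios of 0.12 and 0.26 for C1qa, 0.43 and 0.31 for C1qb and 0.24 and 0.28 for C1qc. Cfp (properdin, which stabilises the alternative convertase) was at 0.31 and 0.25. F13a1, the enzyme subunit of factor XIII, had pool ratios of 0.74 and 0.51. C3ar1, the receptor of the C3a fragment, was at 0.61 and 0.54. It was above background in 4 of 8 channels, and its ratio was 0 on both arrays with GALP in Cy5.

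Macrophage markers are given beside the C1q genes, C3ar1 and F13a1, which macrophages express. Their list held 9 names, among them both Adgre1 and its older symbol Emr1. Of these names, 8 were measured, and 6 of those were above 0 in both pools. Of the 10650 genes with signal in all channels, 3301 were so too. Marco was called higher, with pool ratios of 1.05 and 0.69. Cd68 was at 0.67 and 0.43 and Adgre1 at 0.42 and 0.44. Clec4f, which marks Kupffer cells, was at -0.12 and 0.11 and Timd4 at -0.27 and -0.047. The summed processed signal of the 8 markers was 25161 to 30208 in the GALP channels and 22129 to 24765 in the control channels. These channels are repeat measurements of the same pools, and the brightest markers weigh most in such a sum. The part of macrophages in the ratios of these genes was not tested.

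Acute-phase genes, which the liver raises with interleukin-6 as it does fibrinogen and C3, were listed for comparison. Of 17, none was called, 12 had a mean above 0 and 5 below, and the median was 0.033 and 0.18 in the greater-loss and lesser-loss pools. Lcn2 was at 0.59 and 0.68, Saa3 at 0.65 and 0.36 and Hp at 0.19 and 0.18. Crp was at -0.35 and -0.51. Saa1 was at -0.017 and 0.34 and Saa2 at 0.033 and 0.37, near 0 in one pool and above it in the other.

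**Figure D4:**
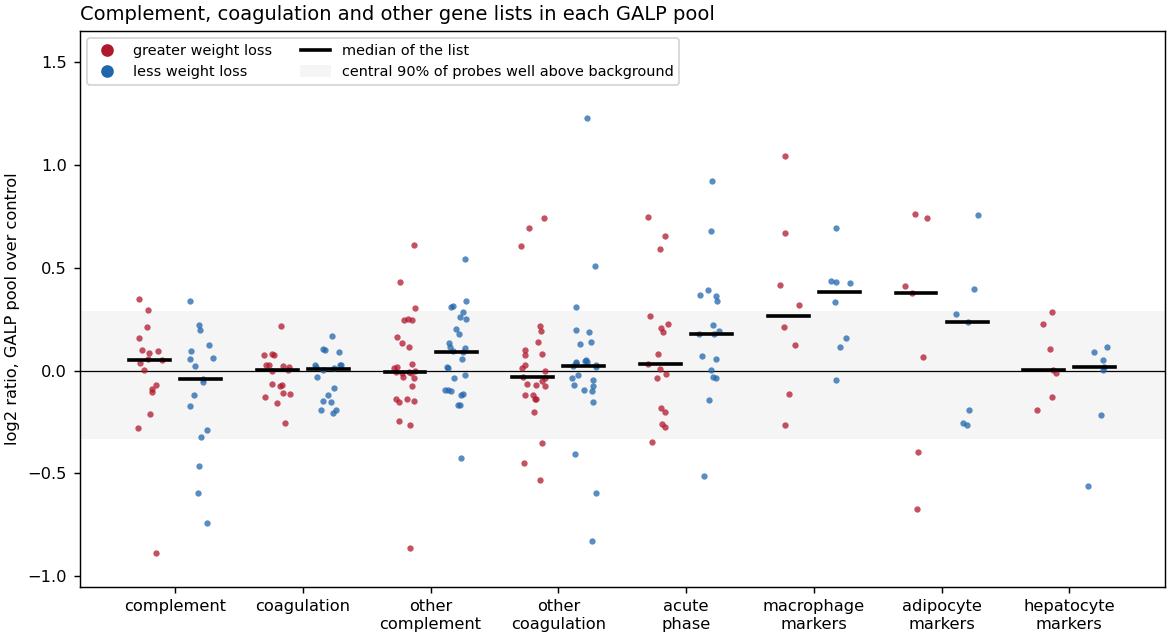
Log2 ratio over control of each gene (points) in the greater-loss (red) and lesser-loss (blue) GALP pools. Shown are the 2 cascades, the other genes of each, acute-phase genes and markers of 3 cell types, with medians as black bars. The grey band holds the central 90% of 14444 probes with signal by their mean over both pools, whereas the points are ratios of single pools. The coagulation genes lie inside the band in both pools, while medians of the macrophage markers are 0.26 and 0.38.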

How the data were processed

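The authors scanned 1 slide of 4 arrays. Processed intensity values, per the file headers, came from Feature Extraction 12.0.3.1 after background subtraction and LOWESS dye normalization. The labels name version 11.0.1.1, and the paper names another. The deposited log10 ratio is that of processed Cy5 over Cy3, with a deposited p-value from the error model of the software, which compares the extracts of 1 array.

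Ratios were turned to GALP over control as log2. Spots with an outlier mark (232 to 319 of 43379 per array) were left out, spots of a probe averaged, and the 2 arrays of a pool, which carry the same extracts, averaged. The brightest probe stands for a gene. The labels give the control channel a weight-loss group, whereas the paper describes 1 control pool, which was treated as 1 sample. Array ratios correlated at 0.54 and 0.26 within pools (Pearson, across 14444 probes of single arrays, as a description). Between pools they correlated at 0.41 and 0.33 in the same dye orientation and at only 0.091 and 0.063 in opposite orientations. Averaging both orientations therefore matters.

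limma 3.58.1 in R 4.3.3 (lmFit, eBayes, 1 residual degree of freedom) tested the 2 pool ratios against 0, adjusted over 41037 probes by Benjamini-Hochberg. Both were tested on simulated data: the rule recovered the known changes, whereas limma over all probes estimated their size but called none at an adjusted p of 0.05. All members are named; other genes are named where their ratio was over 0.5 in size in both pools, where a result turned on them, or after their values were seen. The members and lists were chosen with earlier results of these data known. The number of arrays limits the precision. Python 3.11.15 with pandas 2.3.3 was used. The alternatives were normexp (offset 50) with loess, median centring, the series table of log10 ratios, no outlier filter, a filter on dim probes, all probes of a gene, each dye orientation, each pool left out, other p-value rules, and for limma a filter, an intensity trend and a random block. C1s1 as a member was added after seeing the data.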

Additional observations from a re-analysis of the deposited data

Results flagged for a closer look

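In 3 genes both arrays of one pool lay above 0 and both of the other below, with signal in all channels. The log2 ratio of C6 in the greater-loss pool exceeded that in the lesser-loss pool by 0.81, that of Plat (tissue plasminogen activator, no member) by 0.29 and that of Mbl2 by 0.22. Of the 35 members, 2 showed this, against 6.06% of the genes with signal. The differences were not tested, since each weight-loss group is 1 pool.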

How the results depend on the processing

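No member was called with normexp and loess, centring, the series table, no outlier filter, the filter on dim probes, the mean over probes, or the Cy5 arrays alone. Cfd was the 1 member called with the GALP-in-Cy3 arrays alone, with a p-value asked on at least 1 array of each pool, and with no p-value; of all probes these settings called 0.38%, 0.405% and 0.877% lower. Leaving out a pool gave 0 to 1 called members, the 1 being Cfd without the lesser-loss pool, where 0.395% of all probes were called lower. With limma, 0 members passed with a dim-probe filter or a trend, and 1 (C2, adjusted p 0.0406) passed with the 4 arrays as samples and the pool as a random block, where the estimated correlation was -0.479 and 193 of 41037 probes passed. Over the 4 limma settings the adjusted p of Cfd was 0.0649 to 0.530 and that of C2 0.0406 to 0.530.

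Members above 0 on every array numbered 15 with the Cy3 arrays alone and 10 to 13 with 1 pool left out. Members below 0 on every array numbered 14 with the Cy5 arrays, 12 with the Cy3 arrays and 10 to 11 with 1 pool left out. These settings ask for 2 arrays rather than 4. Complement genes above 0 on every array numbered 3 with normexp and loess, against 7, and the cause was not tested. The complement median was 0.065 with the Cy5 arrays and its difference from coagulation 0.13. The coagulation median was -0.0065 with normexp, -0.0021 with no outlier filter (which adds F2), -0.029 over all probes, -0.065 with the Cy5 arrays, -0.040 with the Cy3 arrays, and 0.00096 to 0.0068 with 1 pool left out. With normexp, all probes or 1 dye orientation, 63 of 140 values of single members moved by over the SD of the pools. The other 7 alternatives left them as they were or, with a pool left out, cannot move a mean by more than this SD. In all, 17 of 35 members kept their sign under all 11 alternatives, among them Cfd, C2, C3, C8a, F7, F10 and the fibrinogen genes. Centring changed nothing, since the median of each array was 0.

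No paired analysis was possible because the replicate numbers mark dye orientations of the same extracts, which were averaged. With 1 control pool, its own deviation from other control livers is part of every ratio. Normexp with loess moved the means of Cfd, C9, Fga, Serpind1 and Cfb by over 0.1, the last to the other side of 0, and the cause was not tested.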
